A study of Mus musculus with 6 samples.

Results

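The genes described here encode proteins of the spliceosome and the serine/arginine-rich (SR) splicing factors. They were taken by symbol from GENCODE M21 as protein-coding genes named Sf3a or Sf3b with a number, Snrp with a letter from a to g or a number, Srsf with a number, or Prpf with a number, with Snrpn left out. The annotation holds 44 such genes, and 42 of them are among the 12149 genes of the deposited table; Srsf2 and Srsf12 are not analysed here. Messenger RNA was sequenced from 6 single mouse blastocysts of C57BL/6 background at embryonic day 3.5, collected about 96 h after zygotes had received small RNAs from sperm at 2 ng/µl by microinjection. The small RNAs came from normal males for the 3 control embryos (Ctl) and from males with a depressive state brought on by stress for the other 3 (Dep), so every embryo carried an injection and none served as an uninjected control. Whole embryos were lysed one by one, and the labels do not say which embryos shared parents, an injection day or a sperm donor, so p-values measure the spread between these embryos only.

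Splicing removes introns from precursor RNA in a large complex assembled on each intron from small nuclear ribonucleoproteins (snRNPs), each a small nuclear RNA with its proteins. The U1 snRNP pairs with the 5′ splice site, and the U2 snRNP, with its SF3A and SF3B complexes, binds the branch point. The U4/U6.U5 tri-snRNP then joins, and its rearrangement builds the catalytic centre. SR proteins bind exons through RNA recognition motifs and recruit the snRNPs through their arginine/serine-rich tails. The early embryo relies on this machinery from the time its own genome is first transcribed.

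Reads in listed genes numbered 16543356 to 21548220 per library, and a member had 29 to 19450 reads in a library. In Dep 1, 691 listed genes had no read, against 5 to 106 in each of the other embryos, so it stood apart, and values without it are given beside the folds it moves most. Markers fitted the labelled tissue: the 8 trophectoderm, 8 epiblast and 8 primitive endoderm markers were all listed, while none of 8 markers of cumulus and granulosa cells was. Fgf4, Gata4, Sox17 and Sox7 were at 0 in Dep 1, and Gata4 also in Ctl 3. In bulk samples fewer cells of a type and less RNA per cell cannot be told apart.

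Most of these genes were abundant. Their median over genes of the mean normalized count (reads over the size factor of the embryo's library) was 2809, against 477 over all listed genes. Per transcript length, the median levels of the role groups ran from 14.2 for the Prpf genes of the tri-snRNP to 149 for the Sm core, whose proteins form the ring around the snRNAs. Snrpe reached 452 ± 116 FPKM and Snrpb 381 ± 91.1 (FPKM, reads per kilobase of the principal transcript, scaled to the reads in listed genes; mean ± SD over 6 embryos). The SR protein gene Srsf3 followed at 332 ± 46.5 FPKM, and Snrpc, of the U1 snRNP, at 291 ± 53.0, so the order of neighbours among these 4 lay within their spread. The Prpf genes of the tri-snRNP sat lower, from 11.3 FPKM in Prpf4 to 27.7 in Prpf31. The lowest of all were Prpf19 at 6.53 ± 2.42, Prpf40b at 4.42 ± 3.22 and Srsf4 at 3.55 ± 1.27 FPKM, again within each other's spread. With the length of all annotated exons in place of the principal transcript, the order changed. Snrpb, at 224 FPKM, then stood above Snrpe, at 166. Srsf3 fell to 110, below Srsf9 at 125, Snrpg at 121 and Srsf7 at 113, and Snrpc fell to 43.9.

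**Figure D1:**
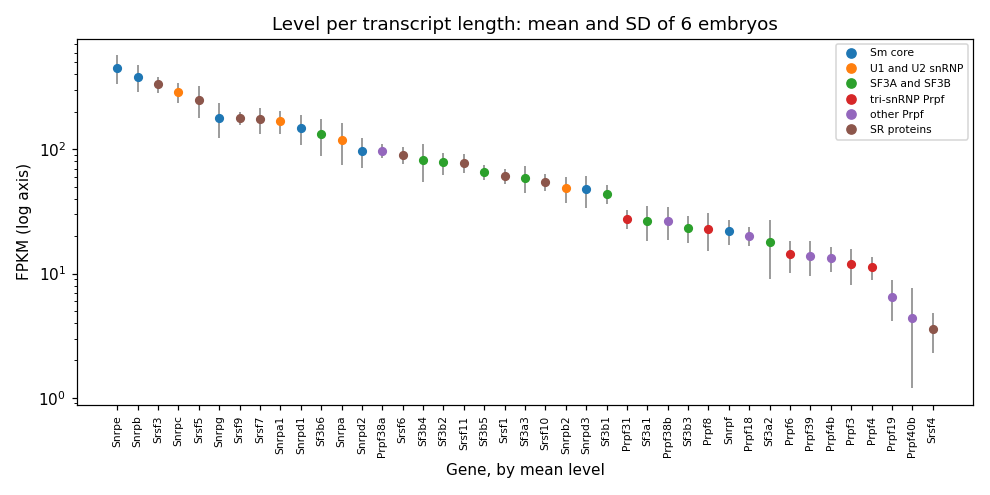
Level of 41 genes per transcript length (FPKM on a log axis, mean of 6 embryos with SD), coloured by role group and sorted by mean. Snrpe and Snrpb head the order at 452 and 381 FPKM, and Srsf4 closes it at 3.55.

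Setting Dep against Ctl asks whether small RNAs from sperm of stressed males alter these genes in the early embryo. None of the 42 passed an adjusted p of 0.05 by limma, fitted and adjusted over all 12149 genes, where 0.0% of all genes passed (adjusted p = 0.9997 for each member). None reached an unadjusted p of 0.05 either, by limma (1.85% of all genes), edgeR (1.74%) or DESeq2 (2.3%), and neither edgeR nor DESeq2 called a member at the adjusted threshold, where they called 0.0% and 0.00823% of all genes. The smallest unadjusted p, 0.0833, was that of Sf3a2. Standard errors of the members' log2 folds ran from 0.24 to 0.76. Changes of that size, and some larger ones, could not be resolved with 3 embryos per group. Prpf40b had the largest fold, 1.35 ± 0.76 (SE), with a limma unadjusted p = 0.104.

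The folds leaned upward by a small amount. By limma on log2(normalized count + 1), 27 of 42 members had a log2 fold above 0. So did 48.2% of all genes and 2026 of the 3849 genes with a mean of at least 1000 normalized counts. The median log2 fold of the members was 0.05, against -0.02 over all genes and 0.02 over those 3849. Without Dep 1 the count fell to 18 of 42, where 51.9% of all genes lay above 0, and the median to -0.04. Of the same 3849 genes, 1629 lay above 0 without Dep 1, with a median of -0.06. Without Dep 3 the count of members was 31 of 42, with a median of 0.26. There 5776 of all 12149 genes and 2230 of the 3849 lay above 0, with medians of -0.03 and 0.08. Quantile normalization gave 21 of 42 members and a median of 0.01, against a median of -0.00078 over all genes. In 1 member, Sf3a1, all 3 Dep embryos lay above all 3 Ctl embryos, and in 0 members all 3 lay below; over all genes this held for 3.09% and 3.8%, or 6.9% in either direction. As a share of all reads in listed genes, members took 0.732% ± 0.0348 in the Ctl embryos and 0.781% ± 0.0606 in the Dep embryos (SD over 3 embryos).

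**Figure D2:**
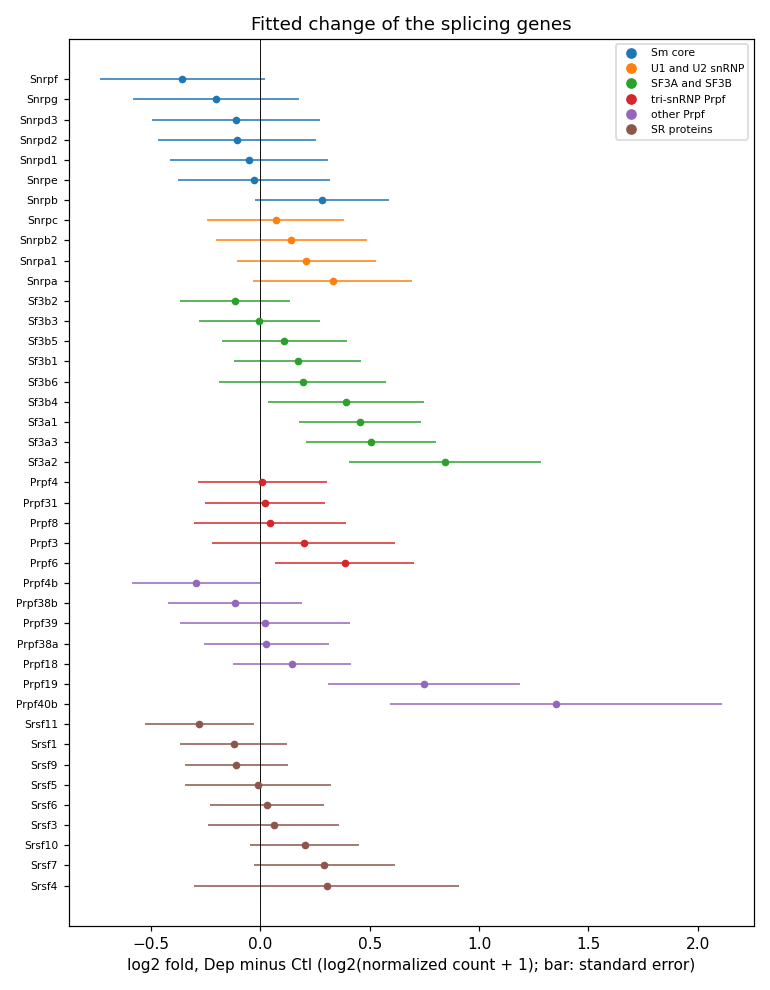
Fitted log2 fold of Dep against Ctl for 41 genes, with standard errors, coloured by role group. Most bars cross 0; those of Sf3a1, Sf3a2, Sf3a3, Sf3b4, Prpf6, Prpf19 and Prpf40b lie above it and that of Srsf11 below it, and no gene passed the test.

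The 3 subunits of SF3A, which joins the U2 snRNP before it binds the branch point, had the highest folds of their role group. Sf3a1 had 1823, 2137 and 1969.9 normalized counts in Ctl 1, 2 and 3, against 2212, 3698 and 2422 in Dep 1, 2 and 3. Every Dep embryo thus lay above every Ctl embryo, with Dep 2 far above the rest. Sf3a2 had 344, 919 and 364 in Ctl, against 663, 1246 and 809 in Dep. Ctl 2 lay above Dep 1 and Dep 3, so the groups overlapped, although within each group embryo 2 was the highest. Sf3a3 had 1604, 1870.2 and 1383 in Ctl, against 2879.8, 2542 and 1619 in Dep, and only Dep 3 lay within the range of the controls. The log2 folds were 0.46 ± 0.28 for Sf3a1, 0.84 ± 0.44 for Sf3a2 and 0.50 ± 0.30 for Sf3a3 (SE), with a limma adjusted p = 0.9997 for each. All 3 had positive folds in every one of the 15 alternative settings, and without Dep 1 the folds were 0.60, 1.04 and 0.34. With each embryo left out in turn they ran from 0.23 (without Dep 2) to 0.60 for Sf3a1, from 0.59 (without Dep 2) to 1.30 (without Ctl 2) for Sf3a2 and from 0.34 to 0.75 (without Dep 3) for Sf3a3. Exons of Plekhj1 share 16.1% of the exon bases of Sf3a2, and without strand the reads of that stretch cannot be assigned.

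Same-numbered embryos can be set side by side, since both groups are numbered 1 to 3 and the numbers were taken as pairs by a check of the data described under processing. All 3 SF3A genes were higher in Dep in each of the 3 pairs, by 0.28, 0.79 and 0.30 on the log2 scale for Sf3a1, by 0.94, 0.44 and 1.15 for Sf3a2 and by 0.84, 0.44 and 0.23 for Sf3a3. With the number as a block, limma gave an adjusted p = 0.941 for each. Over the whole set 10 of 42 members were higher and 6 lower in all 3 pairs, where 12.6% and 12.6% of all genes were. In pairs 2 and 3, without Dep 1 and its partner, 14 of 42 were higher in both, where 26.1% of all genes were. Besides the SF3A genes, those higher in all 3 pairs were Sf3b4, Snrpa, Prpf6, Prpf19, Prpf40b, Srsf7 and Srsf10. Those lower in all 3 pairs were Sf3b2, Snrpf, Prpf4b, Srsf1, Srsf5 and Srsf11. The block brought 2 members, Sf3a2 (limma, unadjusted p = 0.0201) and Prpf40b (unadjusted p = 0.0392), under an unadjusted 0.05, where 3.46% of all genes passed it. It brought 0 members under an adjusted 0.05. The pairs were taken from a check of these same values, so the p-values with the block are descriptive only.

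**Figure D3:**
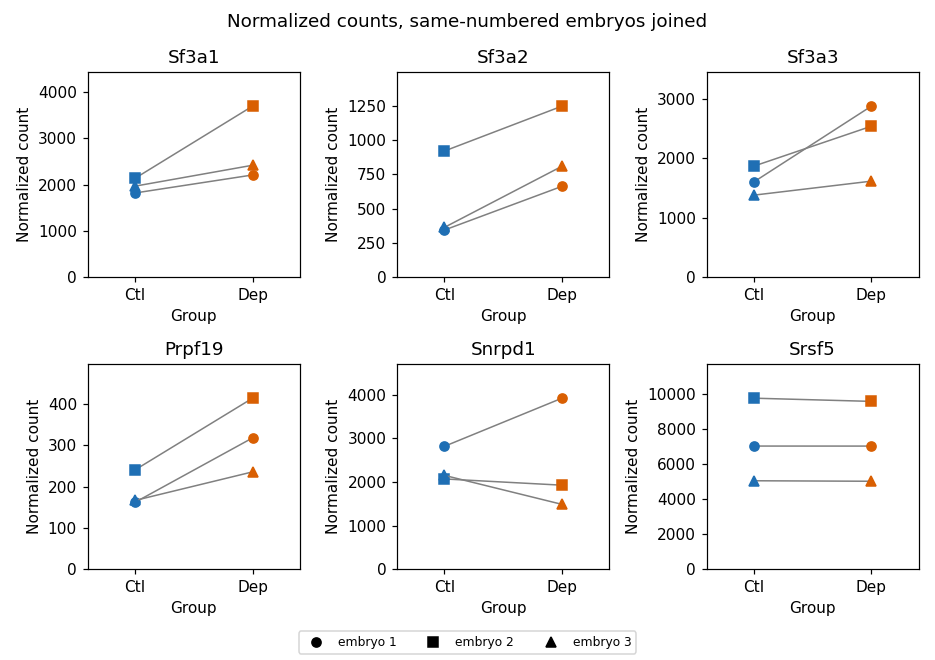
Normalized counts of 6 genes in the Ctl (blue) and Dep (orange) embryos, with same-numbered embryos joined by a line and marked by shape. The lines of Sf3a1, Sf3a2, Sf3a3 and Prpf19 go up in all 3 pairs, those of Snrpd1 go up in pair 1 alone, and those of Srsf5 are nearly level at 3 separate heights.

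The upstream regions of the SF3 genes shared a short motif, except that of Sf3b1. Sf3b4 and Sf3b5 had no sequence and could not be searched. In the 250 bases before the RefSeq start, on either strand, a core recognised by ETS transcription factors, spelled CCGGAAG, or from the opposite strand CTTCCGG, was found for 6 of the 7 SF3A and SF3B genes with a sequence in the table. These 6 stretches of 30 bases from RefSeq on GRCm38.p6, read along the gene's strand with the match in capitals, are shown because the SF3A subunits were higher in Dep in all 3 pairs.
Sf3a1, chr11:4160324-4160353, plus strand: tgcgaaacggcgagagggcgggaCCGGAAG
Sf3a2, chr10:80798647-80798676, plus strand: acgcctttgctcCCGGAAGggatcgcttcg
Sf3a3, chr4:124714759-124714788, plus strand: tcccccaagacaCTTCCGGgacacgcggaa
Sf3b2, chr19:5295458-5295487, minus strand: cgggacgtggattacgcaaCCGGAAGtttc
Sf3b3, chr8:110847015-110847044, minus strand: tcccggtgggcgCTTCCGGgcttgcgaggt
Sf3b6, chr12:4817526-4817555, plus strand: ccggtccgcaatCCGGAAGcgttctggagc
The match ends 1 base before the RefSeq start in Sf3a1 and 70, 84, 5, 223 and 64 bases before it in the others, in the order shown. Sf3b2 has a second RefSeq start, and its match ends 7 bases before that one. The window of Sf3b6 holds 2 matches. GENCODE M21 places the start of some genes elsewhere, so that 4 of the 30 bases lie in annotated exons of Sf3a1, all 30 in those of Sf3a2, 13 in those of Sf3a3 and 12 in those of Sf3b6. Among all members with a sequence 16 of 36 held the motif, or 44.4%, against 16.8% of the 9075 listed genes and 7.83% of the 27025 genes with a sequence. Sf3b2 and Sf3b3, with the same letters, had folds of -0.12 and -0.00, and no link between motif and fold was tested.

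The 6 genes of SF3B, which clasps the branch point adenosine, had log2 folds from -0.12 to 0.39, and their difference from SF3A was not tested. They had a median log2 fold of 0.14, with 4 above 0, and without Dep 1 the median was 0.01, with 3 above 0. Sf3b1, the largest scaffold of the complex, had 6186, 4464 and 3631 normalized counts in the controls, against 5684, 6117 and 4116 in Dep. All 3 Dep values lay within the range of the controls. Sf3b2, which binds near the branch point, had 4333, 4313 and 5727 in Ctl, against 4243, 3982 and 4979 in Dep, which gave a log2 fold of -0.12 ± 0.25 (SE), the lowest of the role group. Sf3b4, whose protein binds RNA upstream of the branch point, had 2545, 3464 and 1566 in Ctl, against 3206, 4343 and 2239 in Dep. Like the SF3A genes it was higher in Dep in each pair, by 0.33, 0.33 and 0.52 on the log2 scale, with a fold of 0.39 ± 0.36 that was 0.38 without Dep 1. Sf3b6, a small RNA-binding subunit, was the most abundant of the group per length of the principal transcript, at 132 ± 43.5 FPKM. With the length of all annotated exons it stood at 54.6, below Sf3b4 at 72.6 and Sf3b5 at 65.4. Its normalized counts were 3302, 2503 and 2068 in Ctl, against 5278, 2622 and 1849 in Dep. Here Dep 1 alone lay above the controls, and without it the log2 fold went from 0.19 to -0.23.

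Genes of the Sm ring varied together between embryos, with Dep 1 and Ctl 1 high in most of them. All 7 were measured, 6 of them with a log2 fold below 0, and the median was -0.11. Snrpd1 had 2814, 2071 and 2153 normalized counts in the controls, against 3917, 1927 and 1489 in Dep, and its log2 fold of -0.05 was -0.46 without Dep 1. Snrpe had 5501, 3158 and 3978 in Ctl, against 6501, 2974 and 3364 in Dep. Snrpg had 4435, 2778 and 3734 in Ctl, against 5746, 2199 and 2393 in Dep. In each of these, Dep 1 was the highest embryo and Ctl 1 came next, and the same order was seen in Snrpd2 and Snrpd3. Snrpf, the lowest Sm gene at 22.0 FPKM, departed from it, with 456, 297 and 425 in Ctl, against 293, 283 and 329 in Dep. Its log2 fold of -0.36 ± 0.38 (SE) was the lowest of all 42 members. Exons of other annotated genes share 85.4% of its exon bases, and without strand their reads cannot be told apart. Snrpb, the one Sm gene with a fold above 0, had 7287, 8430.2 and 6100.4 in Ctl, against 10095, 11315 and 5888 in Dep, which gave a log2 fold of 0.28 ± 0.31 (0.10 without Dep 2, 0.57 without Dep 3).

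The Sm difference depended on which embryos were in the fit. Without Dep 1 the median log2 fold of the 7 genes was -0.46, with 6 below 0. There Snrpg had -0.64 (limma, unadjusted p = 0.0436, adjusted p = 0.987), and 3.9% of all genes had an unadjusted p under 0.05. Without Ctl 1 the median was 0.09, without Dep 2 it was 0.06 and without Dep 3 it was 0.11, each with 5 of 7 above 0, so the direction did not hold. edgeR and DESeq2 gave medians of -0.00 and -0.00, with 3 of 7 above 0 in each. Summed trophectoderm markers were also highest in Dep 1, at 103407 normalized counts, against 42117 and 44952 in Dep 2 and Dep 3 and 48663 to 73308 in Ctl, with all 8 markers detected in every embryo. Krt8 and Krt18, at 34039.9 and 47707 in Dep 1, made up most of that sum, and Tfap2c was lowest in Dep 1. The primitive endoderm sum was also highest in Dep 1, at 25778 against 20079 to 23935 elsewhere, and the epiblast sum lowest there, at 5908 against 7099 to 12896. Dab2 alone, at 22085 in Dep 1, made up most of the primitive endoderm sum. Gata4, Sox17 and Sox7 were at 0 in Dep 1, and Gata6 was lowest there. The median deviation of the 8 primitive endoderm markers from their own means was -1.64 in Dep 1 (log2 scale), the lowest of the embryos, and -1.59 in Ctl 3. Transcript length moved with the libraries too. Across the 3818 genes with a mean of at least 1000 normalized counts and a known length, the deviation of Dep 1 from the gene's mean correlated with log2 transcript length at r = -0.390, and at -0.461 across the 42 members, while for Dep 3 the values were 0.401 and 0.435. The part of cell makeup and transcript length in the Sm values was not tested.

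The 4 genes for proteins particular to the U1 or U2 snRNP had Dep 3 below Dep 1 and Dep 2. All had log2 folds above 0, from 0.07 in Snrpc to 0.33 in Snrpa, each smaller than its standard error, and without Dep 1 their median went from 0.18 to -0.09, with 1 of 4 above 0, while without Dep 3 it was 0.49, with 4 of 4 above 0. Snrpa, the U1 protein that binds a stem-loop of the U1 RNA, had 2321, 3615 and 1893 normalized counts in the controls, against 3272, 4735 and 2038 in Dep. Embryo 2 was the highest and embryo 3 the lowest in both groups, with a log2 fold of 0.33 ± 0.36 (SE) that was 0.04 without Dep 2 and 0.65 without Dep 3. Snrpa1, a U2 protein that pairs with Snrpb2, had 3784, 3862 and 2936 in Ctl, against 5437, 4691 and 2607 in Dep. Its fold of 0.21 ± 0.32 was -0.00 without Dep 1. Snrpc, which helps U1 hold the 5′ splice site, had 5463, 5581 and 4229 in Ctl, against 7479.8, 5674 and 3518 in Dep. Its groups overlapped, with both the highest and the lowest value in Dep, and the fold was -0.18 without Dep 1 and 0.37 without Dep 3. Snrpa and Snrpc each have 7 other annotated genes of near-identical coding sequence, so the division of their reads is uncertain. The same holds for Sf3b4, Snrpg and Srsf3, each with a copy in the table. Snrpf, Snrpe, Snrpd1, Snrpd2, Snrpb2, Prpf19, Prpf38a, Srsf5, Srsf7 and Srsf10 also have such copies in the annotation, though none in the table.

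Prpf genes of the tri-snRNP had small mean folds, while single embryos departed from the controls. All 5 had log2 folds above 0, with a median of 0.04, but 3 of 5 did without Ctl 1, Dep 1, Dep 2 or Dep 3, with quantile normalization and with library weights. The median over those 6 settings lay between 0.05 and 0.20. Prpf8, the large scaffold around the catalytic centre, had 2953, 3005 and 2765 normalized counts in the controls, against 1720.3, 4516 and 3457 in Dep. The controls lay close together and the Dep embryos on both sides of them, and the fold of 0.04 ± 0.35 was 0.44 without Dep 1. Prpf6, which bridges U5 and U4/U6, had 523, 755 and 772 in Ctl, against 708, 945 and 1015 in Dep, the highest fold of the group at 0.38 ± 0.32 (SE). Only Dep 1 overlapped with the controls. Prpf3, of the U4/U6 snRNP, had 361, 661 and 764 in Ctl, against 1019.8, 458 and 590 in Dep. Its fold of 0.20 ± 0.42 rested on Ctl 1 and Dep 1, and was -0.13 without either of them. Prpf4, its partner in the U4/U6 snRNP, had 948, 1042 and 1209 in Ctl, against 1169, 821 and 1267 in Dep, and Prpf31, which binds the U4 RNA, 1653, 1565 and 1484 in Ctl, against 1352, 2051 and 1446 in Dep, with folds of 0.01 ± 0.29 and 0.02 ± 0.27.

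Among the other Prpf genes, Prpf40b and Prpf19, the lowest in level, had the largest folds and the widest errors. Prpf40b, a homolog of the yeast U1 factor Prp40, had 34.3, 252 and 218 normalized counts in the controls, against 200.3, 291 and 554 in Dep. Ctl 1, with 29 reads, lay far below the other 5 embryos, and Dep 1 lay below 2 of the controls. The log2 fold was 1.35 ± 0.76 (SE); it was 0.44 without Ctl 1, 0.95 without Dep 3 and 1.69 without Dep 1 (limma, unadjusted p = 0.0463, adjusted p = 0.987). Prpf19, the ubiquitin ligase that activates the spliceosome, had 162, 240.5 and 167 in Ctl, against 318, 414 and 236 in Dep. Ctl 2 lay just above Dep 3, which was the only overlap, and the fold was 0.75 ± 0.44. Prpf4b, a kinase of spliceosomal proteins, had the lowest fold of the group, -0.29 ± 0.29 (-0.06 without Dep 2), with 2199, 1735 and 2356 in Ctl, against 1961, 1226 and 2032 in Dep. Prpf38a, needed for the release of U4, had 2702, 2693 and 2574 in Ctl, which lay close together, against 3409, 3066 and 1899 in Dep. Prpf18, Prpf38b and Prpf39 had folds from -0.12 to 0.14, and that of Prpf39 went from 0.02 to -0.43 without Dep 1.

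SR protein genes were the steadiest of the role groups. Their median SD over the 6 embryos was 0.22 on the log2 scale, against 0.38 for all members, 0.37 for genes with a mean of at least 1000 normalized counts and 0.53 for all listed genes. The 9 measured genes had log2 folds from -0.28 to 0.30, with 5 above 0 and a median of 0.03. Srsf9 had 3553, 4185 and 4029 normalized counts in the controls, against 3674, 3579 and 3618 in Dep, and its highest embryo was 1.18-fold above its lowest, the narrowest range of all members. Srsf3, an exporter of mRNA as well as a splicing factor, had 15690.0, 16239 and 14702 in Ctl, against 22987, 14793 and 12492 in Dep. Dep 1 was the outlying embryo, and the fold went from 0.06 ± 0.30 to -0.19 without it. Srsf7, which shares target sites and export function with Srsf3, had 6688, 7884 and 5202 in Ctl, against 11256, 8424 and 5315 in Dep, a fold of 0.29 ± 0.32 that was 0.04 without Dep 1 and 0.58 without Dep 3.

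Srsf11, the SR-related protein that associates with U2AF, had the lowest log2 fold of the SR genes. It had 5334, 4127 and 5168 normalized counts in the controls, against 4176, 3520.3 and 4335 in Dep, which gave a log2 fold of -0.28 ± 0.25 (SE). It was lower in Dep in each pair, yet Ctl 2 lay below Dep 1 and Dep 3. Srsf4 had by far the lowest level, with 56.8, 178 and 179 in Ctl, against 132, 162 and 160.1 in Dep. Its fold of 0.30 ± 0.61 came from Ctl 1, with 48 reads, and was -0.24 without that embryo; 43.0% of its exon bases also belong to another annotated gene. Srsf5 had 7042, 9774 and 5062 in Ctl, against 7040.4, 9591 and 5034 in Dep. Embryo 2 was the highest and embryo 3 the lowest in both groups, and same-numbered embryos differed by at most 0.03 on the log2 scale.

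**Figure D4:**
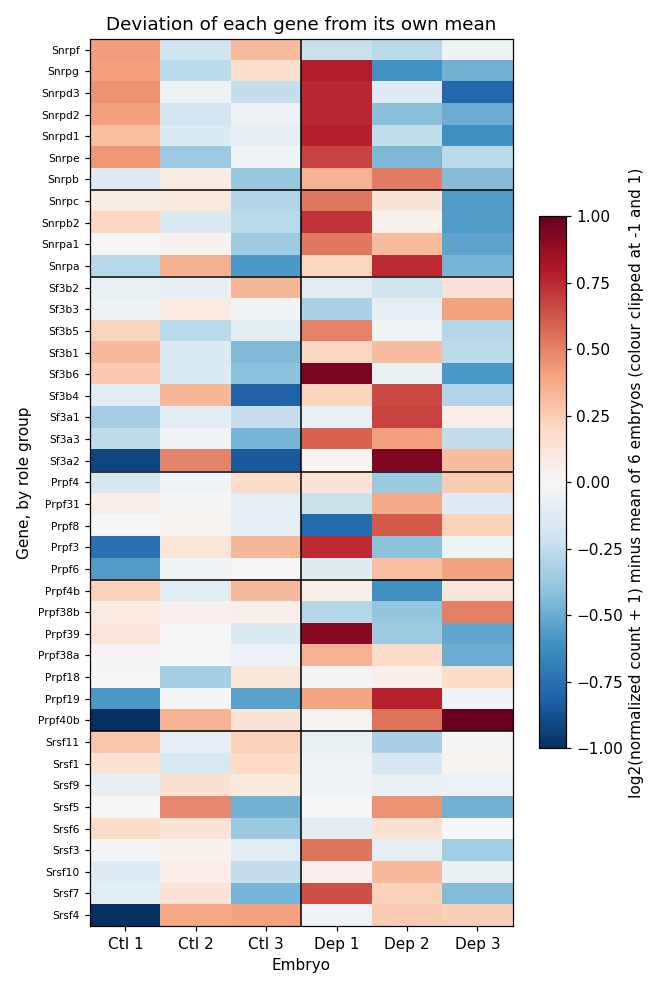
Deviation of 41 genes, each from its own mean over the 6 embryos (log2 scale, red above and blue below, clipped at -1 and 1), with genes in rows by role group and embryos in columns. Dep 1 is red for most Sm and U1/U2 genes, and embryo 2 of both groups is red for Snrpa, Sf3b4, Sf3a2 and Srsf5. Most SR rows are pale, and the strongest deviation among them is Srsf4 in Ctl 1. Srsf3, Srsf5 and Srsf7 also show colour in some embryos.

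The likeness of same-numbered embryos seen in Srsf5 ran through the set. Across the 42 members, deviations from the group means correlated at r = 0.523 between Ctl 1 and Dep 1, 0.553 between Ctl 2 and Dep 2 and 0.700 between Ctl 3 and Dep 3, while the 6 pairs of unlike number had r from -0.522 to 0.0602. The matching values were 0.267, 0.322 and 0.476 across the 3849 genes with a mean of at least 1000 normalized counts and 0.133, 0.151 and 0.129 across all 12149 genes. The 3 deviations of a group add up to 0, which ties the correlations together, and the genes share their libraries. The order of embryos 1, 2 and 3 was identical in both groups for 18 of 42 members, or 42.9%, against 32.8% of genes with a mean of at least 1000 and 26.4% of all genes. Base composition moved with some of the libraries: across members, the deviation of a library from the gene's mean correlated with the GC percentage of the principal transcript at r = -0.573, 0.550 and -0.214 in Ctl 1, 2 and 3 and at -0.245, 0.548 and 0.322 in Dep 1, 2 and 3. The sign was thus shared in pairs 1 and 2 and opposite in pair 3. Over the 3818 genes of the wider set these values were -0.329, 0.0541 and 0.0120 in Ctl and -0.0649, 0.0903 and 0.277 in Dep. The labels give no shared source for same-numbered embryos, and the part of base composition was not tested.

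**Figure D5:**
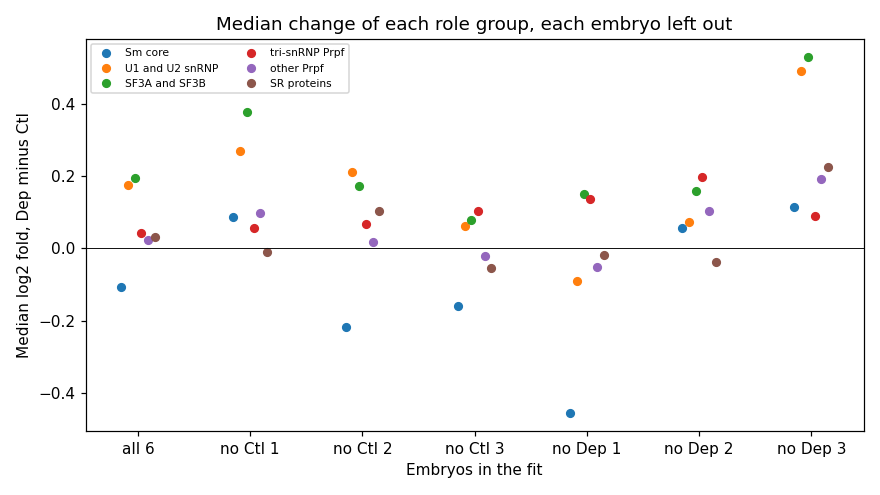
Median log2 fold of Dep against Ctl for each role group with all 6 embryos and with each embryo left out. SF3A and SF3B stay above 0 throughout, from 0.08 to 0.53, and the Sm core runs from -0.46 without Dep 1 to 0.11 without Dep 3.

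The rest of the splicing machinery, 149 measured genes of 152 in 9 lists, held no gene that passed the test either. None passed an adjusted or an unadjusted p of 0.05 by limma; with the replicate block 4 of 149 passed an unadjusted 0.05, where 3.46% of all genes did. Of the 149, 80 had a log2 fold above 0, and the median was 0.03 (-0.01 without Dep 1). Groups did not overlap in 6 of them with Dep higher and in 1 with Dep lower, beside 3.09% and 3.8% of all genes. The Lsm genes, whose proteins form the related ring on U6 RNA, had 6 of 7 folds below 0, as the Sm genes had, with a median of -0.11. That median was -0.44 without Dep 1 and 0.05 without Dep 3, when 5 of 7 were above 0, so the direction did not hold. The Prp19 complex and step factors had 21 of 29 above 0 (median 0.18) and snRNP assembly factors 13 of 16 (median 0.15), while hnRNP genes had 9 of 28 above 0 (median -0.09), and SR-related and SR kinase genes 7 of 19 (median -0.01). In all 3 pairs 10 of the 29 Prp19 and step factors were higher and 0 lower, and 3 of the 28 hnRNP genes were higher and 11 lower, beside 12.6% and 12.6% of all genes; neither list was tested. Coil, the coilin scaffold of the Cajal bodies where snRNPs mature, had 6836, 10110.0 and 11213 normalized counts in the controls, against 11910.0, 12284 and 13895 in Dep. Its groups did not overlap, with a log2 fold of 0.46 ± 0.28 (SE, limma adjusted p = 0.9997). Zrsr2, of the minor spliceosome, had the smallest p among these genes, with 2020.3, 1033 and 1605 in Ctl, against 512, 1043 and 1178 in Dep, a fold of -0.80 ± 0.39 (limma adjusted p = 0.9997) that was -0.43 without Dep 1. Ctl 2 lay within the range of the Dep embryos.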

How the data were processed

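For each gene and library the authors deposited 1 signal value, which from its values is a count of reads over the library's size factor. Per the file headers the same table holds the mean, the log2 fold change, its error, a statistic (score), the p-value and the adjusted p-value. HISAT2, Cufflinks 2.2.1 and mm10 appear in the submitters' processing notes without roles, and the counting program is not given in the sources used here. Per the labels' protocols the cDNA kit was SMART-Seq v4, which keeps no strand. Dividing each library by its step gave whole reads for 100% of values within 0.01; in Dep 2 that step is close to 1 and was read as in the other libraries. Folds from DESeq2 on these reads differed from the deposited folds by at most 4.26e-08. Genes with a mean under 14.2 are not in the table, and PCR copies of a molecule could not be told from separate molecules.

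Of 12149 identifiers, 11829 were named through GENCODE M21 (GRCm38). limma 3.58.1 with a mean-variance trend was run on log2(normalized count + 1) over all genes with Benjamini-Hochberg adjustment and a threshold of 0.05. The alternatives were edgeR 4.0.16, quasi-likelihood, and DESeq2 1.42.0 (both on whole reads, in R 4.3.3), other pseudocounts, a minimum mean, TMM or quantile scaling, library weights, the replicate block and leaving out each embryo. FPKM came from whole reads and the best APPRIS transcript. Copies match at least 80% of the coding bases at 90% identity (blastn 2.17.0). The fits were tested on simulated data. Counts cover all members; 1 member is not reported here by itself or drawn.

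Members and gene lists were chosen with earlier results of these data known. Named with values were, per role group, the 2 highest folds, the lowest fold and the highest FPKM, members whose groups do not overlap or whose unadjusted p is under 0.05, and the smallest p of each pathway list. Prpf8, Sf3b1, Sf3b4, Snrpd1, Snrpg, Srsf5 and Srsf9 fall outside this rule and were chosen after their values were seen. Deviations from the group means correlated between embryos of the same number (r = 0.133, 0.151 and 0.129 over all genes, each above 0.1), so the numbers were taken to pair them; the labels do not state a pairing.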

Additional observations from a re-analysis of the deposited data

How the results depend on the processing

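In none of the 15 alternatives did a member pass the adjusted threshold, and over all genes 0 passed except by DESeq2 on recovered reads, which called 1 gene, no member of the set. The count of members above 0 was 27 in the main setting and ran from 18 to 31 with an embryo left out (29, 28 and 23 without Ctl 1, 2 and 3; 18, 29 and 31 without Dep 1, 2 and 3), and was 21 with quantile normalization, 24 with library weights and 30 with edgeR or DESeq2. Their median log2 fold ran from -0.037 to 0.26 with an embryo left out and from 0.0087 to 0.13 otherwise, and that of the other splicing genes moved by less than the spread of the embryos. Members whose groups do not overlap numbered 1, but 0 with quantile normalization, and 1 to 12 with an embryo left out, when 12.9% to 20.9% of all genes qualify since fewer embryos are compared. With the replicate block the folds are unchanged, and 2 members in place of 0 had an unadjusted p under 0.05; over the other splicing genes it was 4 in place of 0, and over all genes 420 in place of 225. None of these passed the adjusted threshold, where the block changed no call.

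Of the 23 named members 12 kept their sign in all 15 alternatives. For the other 11 the cause was not tested. With quantile normalization the sign turned for Prpf31 (-0.0063), Prpf38a (-0.018), Prpf4 (-0.021), Snrpc (-0.012) and Srsf3 (-0.058). With library weights it turned for Prpf3 (-0.11), Prpf4 (-0.12), Snrpc (-0.0076) and Srsf3 (-0.077). Snrpe turned with edgeR (0.022) and DESeq2 (0.023). With each embryo left out in turn the fold ranged across 0 for Prpf3 (-0.13 to 0.45), Prpf4 (-0.11 to 0.20), Snrpe (-0.38 to 0.19), Srsf4 (-0.24 to 0.58), Prpf31 (-0.16 to 0.14), Sf3b2 (-0.21 to 0.019), Snrpc (-0.18 to 0.37), Prpf38a (-0.14 to 0.28), Sf3b6 (-0.23 to 0.53), Snrpa1 (-0.0015 to 0.53) and Srsf3 (-0.19 to 0.25). Among those that kept their sign it ranged for Prpf19 (0.55 to 0.96), Prpf40b (0.44 to 1.86), Prpf4b (-0.42 to -0.059), Prpf6 (0.20 to 0.54), Sf3a1 (0.23 to 0.60), Sf3a2 (0.59 to 1.30), Sf3a3 (0.34 to 0.75), Snrpa (0.039 to 0.65), Snrpb (0.097 to 0.57), Snrpf (-0.55 to -0.24), Srsf11 (-0.39 to -0.19) and Srsf7 (0.042 to 0.58). Depth limits Prpf40b and Srsf4 most, with as few as 29 and 48 reads in Ctl 1.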

Other observations

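Other promoter motifs were counted in the same 36 windows of 250 bases, on both strands, and are given as descriptions with no test. The CCAAT box (letters CCAAT) was found for 13 members, or 36.1%, against 40.9% of listed genes, and the TATA box (letters TATAAA) for 3, or 8.33%, against 7.42%. The E-box (letters CACGTG) was found for 4, or 11.1%, against 9.88% of listed genes. By role, the ETS core was found for 6 of 7 SF3A and SF3B genes, 4 of 9 SR protein genes, 2 of 4 U1 and U2 snRNP genes, 2 of 6 other Prpf genes, 1 of 5 Sm genes and 1 of 5 Prpf genes of the tri-snRNP.

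The smallest p by limma in each of the 9 other splicing lists belonged to Coil and Zrsr2, given above, and to 7 further genes, 3 of them with a fold above 0 and 4 below, each with a limma adjusted p = 0.9997. Gpkow, a spliceosome-associated G-patch protein, had 787, 1025 and 587 normalized counts in the controls, against 1278, 1107 and 1052 in Dep, with a log2 fold of 0.55 ± 0.31 (SE). Casc3, of the exon junction complex, had 660.4, 550.2 and 676 in the controls, against 692, 906 and 1140.1 in Dep, with a fold of 0.51 ± 0.32. In both the groups did not overlap. Ddx39b, an RNA helicase that acts with U2AF, had 1515, 2142 and 1333 in the controls, against 1919, 2916 and 2253 in Dep, with a fold of 0.51 ± 0.29. Ctl 2 lay above Dep 1.

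Luc7l2, a U1-associated protein, had 2013, 1292 and 1941 in the controls, against 742, 1161 and 1554 in Dep, with a fold of -0.64 ± 0.34. Son, a large SR-related protein, had 4978, 4013 and 4418 in the controls, against 2749.9, 2766 and 4290.0 in Dep, with a fold of -0.48 ± 0.27. In both, Dep 3 lay within the range of the controls. Syncrip, of the hnRNP family, had 4038, 3356 and 3530.3 in the controls, against 3388, 1957 and 2895 in Dep, with a fold of -0.44 ± 0.28. Dep 1 lay just above Ctl 2. Lsm6, of the U6 ring, had 2521, 1373 and 2076 in the controls, against 2136, 1301 and 1554 in Dep, with a fold of -0.25 ± 0.32, and its groups overlapped widely.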
